A study of Mus musculus with 12 samples.

Results

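The genes described here are 9 of the 55421 genes in the deposited tables. They encode the nuclear lamins and a lamin-binding receptor (Lmnb1, Lmnb2, Lmna and Lbr), the HMGB proteins (Hmgb1, Hmgb2 and Hmgb3) and the HMGA proteins (Hmga1 and Hmga2), and were chosen by symbol as genes used as markers of senescence-like arrest. Each symbol stood on 1 row, and all 9 were among the 14721 genes tested. RNA-seq of total RNA was made from B16F10 cells, a mouse melanoma line grown in culture, with 3 libraries in each of 4 groups: untreated vector control (VC), untreated Bub1KO, VC after 8 Gy of radiation, and Bub1KO after 8 Gy of radiation. Bub1KO cells carry a CRISPR-Cas9 disruption of Bub1, which encodes a kinase of the mitotic checkpoint, and the comparison serves the series' question of what a lack of Bub1 changes in the response to radiation. The sources used here do not give the vector carried by the controls, the number of Bub1KO clones or the time from irradiation to RNA extraction.

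Lamins are intermediate filament proteins that line the inner nuclear membrane. Lmnb1 and Lmnb2 encode the farnesylated B-type lamins, Lmna encodes the A-type lamins A and C from 1 gene, and Lbr encodes a membrane receptor that tethers heterochromatin to the B-type lamina. HMGB proteins bend DNA through HMG boxes and HMGA proteins bind AT-rich DNA through AT hooks. Loss of lamin B1, LBR and HMGB2 and release of HMGB1 from the nucleus are widely used signs of senescence, while HMGA proteins can gather in the heterochromatin foci of senescent cells.

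The values are read counts per gene divided by 1 size factor per library, called normalized counts below. Between 19380726 and 33087366 reads in genes lay behind each library. All 7 melanocyte markers were detected, with a summed level of 386900 to 578900 normalized counts. The 10 leukocyte and macrophage markers summed to 32.1 to 37.3 in untreated and 179 to 289 in irradiated libraries, with Adgre1 and Cd3e at 0 throughout, and their part in the results was not tested. Only Cd68 and Lyz2 averaged at least 10 in irradiated cells. Cd68 went from 24.1 to 113 in VC and from 19.4 to 216 in Bub1KO. Lyz2 went from 4.78 to 68.8 and from 9.97 to 62.3. Ptprc averaged at most 0.54 in any group. Bub1, the targeted gene, read 2752, 3185 and 2859 normalized counts in VC against 1834, 1565 and 1588 in Bub1KO before irradiation. After it the values were 1484, 1461 and 1507 against 886, 989 and 1120, and at each treatment the Bub1KO libraries did not overlap those of VC. Reads over the whole gene do not show whether a transcript carries the edit. Replicate 1 of untreated Bub1KO stood apart. The median level of genes with at least 54.1% GC minus that of genes with at most 44.8% GC, each relative to the mean of the 12 libraries, was -0.70 on the log2 scale in this library, against 0.03 and 0.07 in the other untreated Bub1KO libraries. This GC gap was -0.13, -0.36 and -0.19 in the VC libraries before and 0.26, 0.34 and 0.16 after irradiation, and 0.21, 0.28 and 0.08 in the irradiated Bub1KO libraries, so it moved with irradiation as well. Where leaving out replicate 1 of untreated Bub1KO changed a call or moved a called value by over 1.5 times, values with and without it are given. The labels do not state whether replicates were separate cultures, and p-values therefore describe only the spread among these libraries, which may be technical.

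Per kilobase of exon, the untreated VC cells held these transcripts in the order Lmnb1, Hmgb2, Hmgb1, Hmga1, Lmna, Hmgb3, Lbr, Lmnb2 and Hmga2. Lmnb1 stood at 2334 ± 49.7 normalized counts per kb (mean ± SD, 3 libraries), above 96.8% of all tested genes. Hmgb2 followed at 1916 ± 139 per kb, Hmgb1 at 1220 ± 25.5, Hmga1 at 840 ± 156, Lmna at 690 ± 139 and Hmgb3 at 618 ± 49.5. Hmga1, Lmna and Hmgb3 each differed from the next by less than their SDs together, so the order of these 3 is not set. Lbr stood at 426 ± 20.5 per kb, Lmnb2 at 246 ± 23.6 and Hmga2 at 207 ± 3.85, above 64.5% of tested genes. In irradiated VC, Lmna stood at 1387 ± 261 per kb, Hmga1 at 1085 ± 164 and Lmnb1 at 898 ± 24.4, each within the joined SDs of the next, so their order is not set. Below them were Hmgb2 at 702 ± 2.70 and Hmgb1 at 464 ± 29.2. The other 4 lay between 202 per kb (Lmnb2) and 240 per kb (Hmga2). In irradiated Bub1KO, Lmna at 846 ± 34.3 per kb, Lmnb1 at 748 ± 71.7, Hmga1 at 647 ± 43.5 and Hmgb2 at 602 ± 33.1 were the highest, each within the joined SDs of the next.

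**Figure D1:**
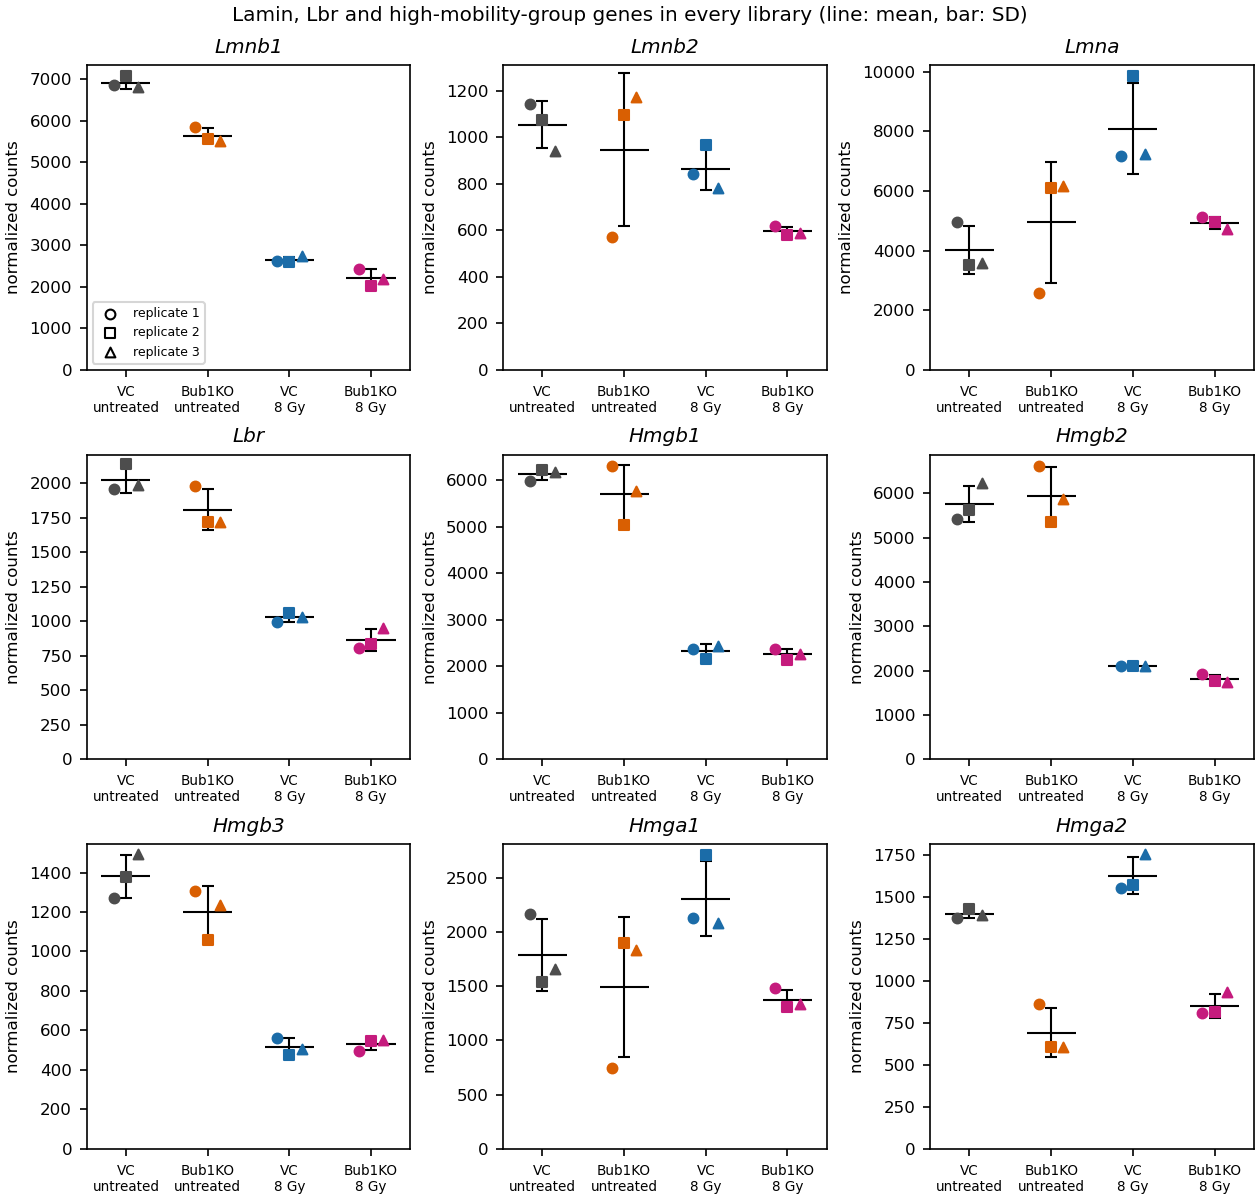
Normalized counts (vertical axes, starting at 0) of the 9 genes in each of the 12 libraries, by group. Points are libraries, with circles, squares and triangles for replicates 1, 2 and 3, lines are means and bars are SDs. Lmnb1, Lbr, Hmgb1, Hmgb2 and Hmgb3 lay lower in every irradiated library than in any untreated one, Hmga2 lay lower in every Bub1KO library than in any VC one, and replicate 1 of untreated Bub1KO (571 for Lmnb2, 2593 for Lmna, 743 for Hmga1) lay far from its group.

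After 8 Gy, 5 of the 9 genes fell and 1 rose in VC cells, and 6 fell and 1 rose in Bub1KO cells. Lmnb1, Lbr, Hmgb1, Hmgb2 and Hmgb3 fell in both genotypes, to between 30.4% and 50.8% of their untreated means. Lmna passed the threshold in VC but not in Bub1KO, and Lmnb2 and Hmga2 in Bub1KO but not in VC, which by itself does not show that the genotypes differ. These calls came from a fit with 1 spread over all 12 libraries. By the same limma test, 25.8% of all tested genes fell and 27.6% rose in VC, and 23.9% fell and 25.4% rose in Bub1KO. Fitted on the 6 libraries of each genotype alone, 6 of the 9 fell and 3 rose in VC (28.5% and 30.9% of all tested genes), and 5 fell and 0 rose in Bub1KO (19.7% and 22% of all). Lmnb2 and Hmga2 then passed in VC and not in Bub1KO, the reverse of the fit on all libraries. The untreated and irradiated libraries did not overlap for 5 lower and 2 higher genes in VC (31.8% and 33.6% of all tested genes) and for 5 lower and 0 higher genes in Bub1KO (25.8% and 29.1%). The median log2 difference of the 9 genes was -0.98 in VC and -1.06 in Bub1KO, against 0.02 and 0.03 over all tested genes. In these bulk samples, fewer cells of a kind and less RNA per cell cannot be told apart.

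**Figure D2:**
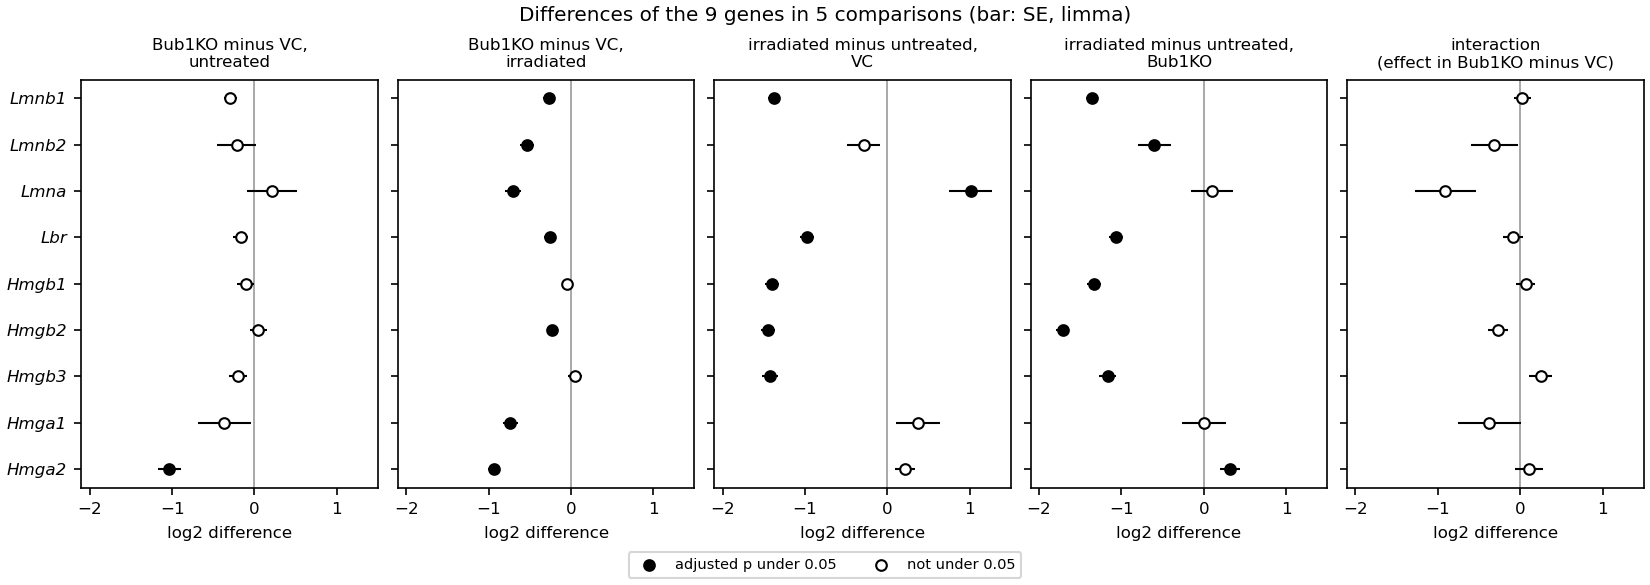
Log2 differences (horizontal axes) of the 9 genes in the 5 comparisons, with bars for the limma SE. Filled points passed an adjusted p of 0.05 over all tested genes. The irradiation panels show 5 genes between -1.71 and -0.98 in both genotypes, and the irradiated genotype panel shows 7 genes below 0 past the threshold.

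Lmnb1, the B-type lamin whose loss is the most used lamina sign of senescence, lies on chromosome 18 from 56707813 to 56753424 (GRCm38, as are all positions here). It read 6858, 7079 and 6800 normalized counts in untreated VC and 2630, 2604 and 2740 in irradiated VC. In Bub1KO it read 5854, 5568 and 5504 untreated and 2438, 2015 and 2192 after irradiation. The irradiated libraries lay below all untreated ones in each genotype, with 38.5% of the untreated mean left in VC and 39.3% in Bub1KO. Lmnb1 fell by 1.38 on the log2 scale in VC (SE 0.07, limma adjusted p = 1.06e-08) and by 1.35 in Bub1KO (SE 0.07, adjusted p = 1.02e-08).

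Lbr, whose protein also carries a sterol reductase domain, lies on chromosome 1 from 181815335 to 181843046. It read 1958, 2139 and 1985 in untreated VC against 996, 1057 and 1034 after irradiation. In Bub1KO it read 1979, 1721 and 1722 untreated and 808, 835 and 954 irradiated. No irradiated library overlapped an untreated one. Lbr fell by 0.98 in VC (SE 0.08, limma adjusted p = 6.19e-07) and by 1.06 in Bub1KO (SE 0.08, adjusted p = 2.99e-07), the smallest fall of the 5 genes in each genotype.

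Hmgb1 (chromosome 5, 149046702 to 149184489) encodes the most abundant HMGB protein, which acts as a danger signal once outside the cell. Its values were 5983, 6228 and 6172 in untreated VC and 2383, 2165 and 2443 in irradiated VC, then 6298, 5039 and 5776 in untreated and 2379, 2145 and 2262 in irradiated Bub1KO. The untreated and irradiated libraries did not overlap in either genotype. Hmgb1 fell to 38.0% of the untreated mean in VC (log2 difference -1.40, SE 0.08, limma adjusted p = 2.96e-08) and to 39.7% in Bub1KO (-1.33, SE 0.08, adjusted p = 4.40e-08). The tables also hold 14 Hmgb1 pseudogene copies whose summed level was 1.72% of that of Hmgb1, and the sources used here do not say how shared reads were assigned.

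Hmgb2 (chromosome 8, 57511907 to 57515999), the HMGB gene most tied to dividing cells, fell in both genotypes. It read 5426, 5616 and 6222 in untreated VC and 2111, 2099 and 2115 in irradiated VC, where the replicates were close together. In Bub1KO it read 6620, 5340 and 5877 untreated and 1921, 1758 and 1742 irradiated. Irradiated libraries held 36.7% of the untreated mean in VC and 30.4% in Bub1KO, with log2 differences of -1.45 (SE 0.08, limma adjusted p = 2.27e-08) and -1.71 (SE 0.08, adjusted p = 4.60e-09).

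Hmgb3 (chromosome X, 71555918 to 71560676), a paralog known from stem and progenitor cells, read 1271, 1376 and 1492 in untreated VC and 564, 476 and 505 in irradiated VC. Its values in Bub1KO were 1307, 1060 and 1237 untreated and 498, 549 and 550 irradiated. The groups again did not overlap. Hmgb3 fell by 1.42 in VC (SE 0.10, limma adjusted p = 1.12e-07) and by 1.17 in Bub1KO (SE 0.10, adjusted p = 5.91e-07), so 37.3% and 44.3% of the untreated means were left. For all 5 genes the call and the direction held in every alternative run, including the fits without replicate 1 of untreated Bub1KO.

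The start regions of these genes were searched for letters found in promoters of cell-cycle genes. Of the 9 genes, 8 had a window in the RefSeq table (GRCm38.p6), 300 bases long with 250 before and 50 after an annotated start. The words were TTTGAA and TTCGAA for the cell cycle gene homology region (CHR), CCAAT for the CCAAT box, TTTCCCGC, TTTCGCGC, TTTGCCGC and TTTGGCGC for an E2F site, and GGGCGG for a GC box, on both strands. The 4 genes with a window that fell in both genotypes are shown with 2 others for contrast, as the 250 bases before the start, in lower case with CHR and CCAAT matches on either strand in capitals:
Lbr (chr1:181842402-181842651): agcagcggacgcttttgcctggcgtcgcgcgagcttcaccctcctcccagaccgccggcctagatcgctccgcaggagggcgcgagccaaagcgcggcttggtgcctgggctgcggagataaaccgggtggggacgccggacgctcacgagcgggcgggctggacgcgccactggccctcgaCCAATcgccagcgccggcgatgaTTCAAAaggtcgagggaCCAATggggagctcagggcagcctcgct
Hmgb1 (chr5:149053058-149053307): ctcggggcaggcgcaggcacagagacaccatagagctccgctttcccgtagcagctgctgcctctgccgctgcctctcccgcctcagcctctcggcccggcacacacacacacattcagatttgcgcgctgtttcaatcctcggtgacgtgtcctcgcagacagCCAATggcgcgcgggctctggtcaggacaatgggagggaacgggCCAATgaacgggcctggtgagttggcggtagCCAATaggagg
Hmgb2 (chr8:57511593-57511842): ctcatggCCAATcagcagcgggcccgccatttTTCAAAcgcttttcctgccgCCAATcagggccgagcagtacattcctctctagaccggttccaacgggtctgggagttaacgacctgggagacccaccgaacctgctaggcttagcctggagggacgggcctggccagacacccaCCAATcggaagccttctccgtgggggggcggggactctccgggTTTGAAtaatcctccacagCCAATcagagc
Hmgb3 (chrX:71555667-71555916): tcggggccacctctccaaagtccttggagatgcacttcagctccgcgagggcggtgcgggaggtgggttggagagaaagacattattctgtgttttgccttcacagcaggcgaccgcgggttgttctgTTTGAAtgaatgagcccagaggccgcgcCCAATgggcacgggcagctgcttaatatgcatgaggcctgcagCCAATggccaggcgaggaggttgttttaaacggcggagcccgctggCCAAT
Lmna (chr3:88503353-88503602): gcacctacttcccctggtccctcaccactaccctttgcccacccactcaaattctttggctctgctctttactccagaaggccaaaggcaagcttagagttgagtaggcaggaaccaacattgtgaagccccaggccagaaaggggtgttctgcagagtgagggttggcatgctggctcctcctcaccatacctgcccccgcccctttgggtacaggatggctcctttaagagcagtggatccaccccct
Hmga2 (chr10:120476470-120476719): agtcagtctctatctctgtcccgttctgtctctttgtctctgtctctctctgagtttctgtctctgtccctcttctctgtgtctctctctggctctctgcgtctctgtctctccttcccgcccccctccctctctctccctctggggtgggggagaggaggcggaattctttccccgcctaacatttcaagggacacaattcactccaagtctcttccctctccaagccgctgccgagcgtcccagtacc

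Hmgb2 and Hmgb3 are transcribed from the plus strand and the other 4 from the minus strand, and all are printed 5′ to 3′ along the gene. Hmgb2 held 4 CCAAT and 2 CHR matches, Hmgb3 held 3 CCAAT and 1 CHR match, Lbr held 2 and 1, and Hmgb1 held 3 CCAAT and 0 CHR matches in the window shown. A second Hmgb1 window held 0 of both. The Lmna window shown and those of Hmga2, Hmga1 and Lmnb2 held 0 CHR and 0 CCAAT matches, while a second Lmna window held 1 CCAAT. The Lmna windows lie inside the gene, whose 5′ end on the minus strand is at 88509956, and that end was not searched. The Hmgb1 and Lbr windows and a second Lmnb2 window also lie inside the spans of their genes. Among all 32851 windows in the table, 19.2% held a CHR word, 37.4% held a CCAAT, 11.7% held at least 2 CCAAT and 7.52% held both words. No E2F word was found in the 8 genes, against 2.26% of all windows, and a GC box, found in 35.7% of all windows, stood in at least 1 window of each of the 8. These are matches of letters in a window of this size and show neither a bound site nor a cause.

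Lmna went the other way in VC. The gene (chromosome 3, 88480147 to 88509956) encodes lamins A and C, which gene counts do not tell apart, and its protein stiffens the nucleus. It read 4966, 3536 and 3580 in untreated VC and 7179, 9858 and 7261 in irradiated VC. The irradiated VC libraries were the highest of all 12, did not overlap the untreated VC ones and held 201% of their mean. Lmna rose by 1.01 in VC (SE 0.26, limma adjusted p = 0.00487). In Bub1KO it read 2593, 6095 and 6155 untreated and 5128, 4952 and 4729 irradiated, a log2 difference of 0.10 (SE 0.26, adjusted p = 0.769). Replicate 1 of untreated Bub1KO was the lowest of all 12 libraries, and without it the Bub1KO difference was -0.31 (adjusted p = 0.0676).

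Hmga1 and Lmnb2 have transcripts richer in GC than 98.1% and 90.4% of the tested genes, and both were also lowest in replicate 1 of untreated Bub1KO. Hmga1 (chromosome 17, 27556497 to 27563674) encodes an AT-hook protein of proliferating and tumour cells. It read 2160, 1535 and 1661 in untreated VC and 2127, 2708 and 2085 in irradiated VC. These overlap, and the log2 difference of 0.37 (SE 0.27) did not pass the threshold (limma adjusted p = 0.257), although it did with the 6 VC libraries fitted alone (adjusted p = 0.0238). Its values in Bub1KO were 743, 1893 and 1830 untreated and 1481, 1308 and 1336 irradiated. With all libraries the difference was 0.0027 (SE 0.27, adjusted p = 0.994), and without the library at 743 it was -0.44 (adjusted p = 0.00892). A near-identical copy, Hmga1b on chromosome 11, averaged 56.1 normalized counts against 1739 for Hmga1, and reads shared between them could not be assigned.

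Lmnb2 (chromosome 10, 80901203 to 80918245), the second B-type lamin gene, read 1141, 1076 and 943 in untreated VC and 843, 967 and 784 in irradiated VC. The irradiated library at 967 overlapped the untreated one at 943. The log2 difference was -0.28 (SE 0.20, limma adjusted p = 0.25), and it passed when the 6 VC libraries were fitted alone (adjusted p = 0.0219). In Bub1KO it read 571, 1097 and 1172 untreated and 619, 580 and 588 irradiated. Replicate 1 of untreated Bub1KO lay below all 3 irradiated libraries and the others far above them. Lmnb2 fell by 0.60 in Bub1KO (SE 0.20, adjusted p = 0.0238), a call that ended in 5 of 17 alternatives, among them the fit on the 6 Bub1KO libraries alone (adjusted p = 0.0723), and without that library it fell by 0.93.

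When the GC trend of each library was removed by a loess fit, the irradiation difference of Lmna was 0.76 in VC (limma adjusted p = 0.00759) and -0.18 in Bub1KO (adjusted p = 0.507). That of Lmnb2 became -0.80 in VC (adjusted p = 1.29e-05) and -1.01 in Bub1KO (adjusted p = 1.19e-06). Hmga1 turned from 0.37 to -0.35 in VC (adjusted p = 0.0192) and went to -0.48 in Bub1KO (adjusted p = 0.00252). Removing the trend shifted all genes too: the median of all tested genes went from 0.02 to -0.14 in VC and from 0.03 to -0.12 in Bub1KO, and the genes called went from 4065 higher and 3796 lower to 3268 higher and 5641 lower in VC, and from 3746 and 3523 to 2997 and 5474 in Bub1KO. The direction of Hmga1 after irradiation thus depended on this step, that of Lmnb2 did not, and Lmna rose in VC either way.

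**Figure D3:**
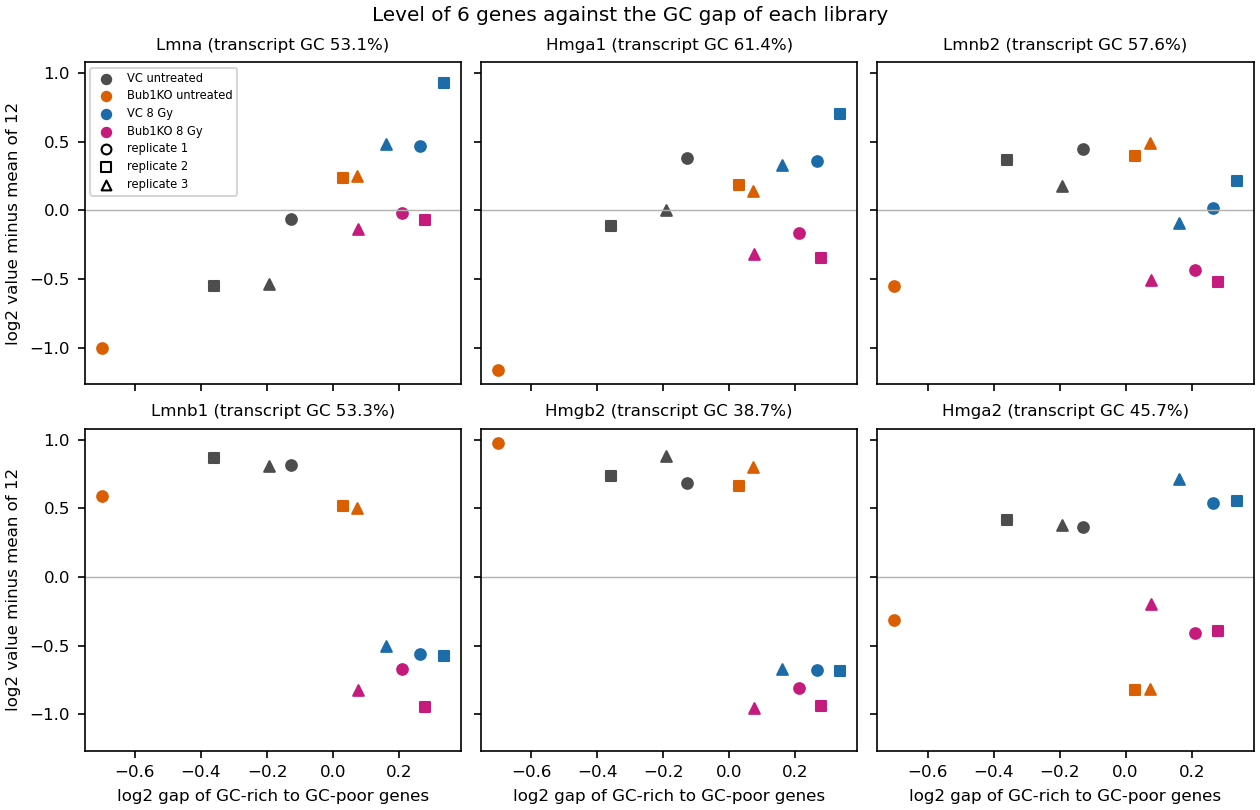
Log2 level relative to the mean of the 12 libraries (vertical axes) against the GC gap of each library (horizontal axes) for 6 of the genes, with colours for groups and shapes for replicates. The library at a gap of -0.70 is replicate 1 of untreated Bub1KO, which is the lowest library for Lmna, Hmga1 and Lmnb2 and the highest for Hmgb2.

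Hmga2 (chromosome 10, 120361275 to 120476469) encodes the AT-hook protein of embryonic tissue and many tumours, and was the member set apart by genotype. It read 1378, 1429 and 1394 in untreated VC and 862, 605 and 610 in untreated Bub1KO. After irradiation it read 1556, 1569 and 1754 in VC and 809, 816 and 935 in Bub1KO. Every Bub1KO library lay below every VC library, at 49.4% of the VC mean untreated and 52.5% irradiated. Hmga2 was lower in Bub1KO by a log2 difference of -1.04 untreated (SE 0.14, limma adjusted p = 0.00486) and -0.93 irradiated (SE 0.08, adjusted p = 2.94e-06). The irradiated call held in all 17 alternatives. The untreated call ended when genes with low values were kept in the test (adjusted p = 0.0854), and without replicate 1 of untreated Bub1KO the difference was -1.20.

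Irradiation moved Hmga2 little by comparison. In VC the irradiated libraries lay above the untreated ones, but the log2 difference of 0.21 (SE 0.12) did not pass the threshold (limma adjusted p = 0.147), except when the 6 VC libraries were fitted alone (adjusted p = 0.0159). In Bub1KO it rose by 0.32 (SE 0.12, adjusted p = 0.0394) with overlap, since the untreated library at 862, replicate 1, lay above 2 irradiated ones. Without that library it rose by 0.49 (limma adjusted p = 9.49e-05). The call ended in 10 of 17 alternatives, among them the fit on the 6 Bub1KO libraries alone (adjusted p = 0.114).

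Among the untreated cells, Hmga2 was the 1 gene of the 9 called between the genotypes, where 1.71% of all tested genes were called lower in Bub1KO and 2.31% higher. Hmga2 and Lmnb1 were lower without overlap, as were 12.9% of all tested genes. Lmnb1 at 81.6% of the VC mean had a log2 difference of -0.29 (SE 0.08, limma adjusted p = 0.0762), which passed in 5 of 17 alternatives, among them the fit without replicate 1 of untreated Bub1KO (-0.32, adjusted p = 0.00728). In the authors' deposited table, which gives VC over Bub1KO, Lmnb1 had a log2 fold change of 0.29 with an adjusted p of 0.00217. The other 7 lay between -0.37 (Hmga1) and 0.21 (Lmna), with limma adjusted p of 0.367 to 0.868. Without replicate 1 of untreated Bub1KO, 4 genes were called: Hmga2, Lmnb1 and Lbr (-0.23, adjusted p = 0.0479) lower and Lmna (0.62, adjusted p = 0.00689) higher in Bub1KO. In that fit 8.4% of all tested genes were called lower and 10.2% higher. Lmna in that comparison thus rests on which libraries are used: 6095 and 6155 lie above all untreated VC values, and 2593 lies below them.

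After irradiation 7 of the 9 genes were lower in Bub1KO than in VC and 0 were higher, while 16.4% of all tested genes were called lower and 14.3% higher. The same 7 had no overlap between genotypes, against 22.6% of all tested genes lower without overlap. Hmga2 had the largest difference, as given above. Hmga1 held 59.6% of the VC mean (log2 difference -0.74, SE 0.09, limma adjusted p = 8.44e-05) and Lmna 61.0% (-0.70, SE 0.10, adjusted p = 0.000213). Lmnb2 held 68.9% (-0.53, SE 0.08, adjusted p = 0.000466). All 4 have irradiated Bub1KO replicates close to each other, such as 5128, 4952 and 4729 for Lmna, well under the lowest irradiated VC library at 7179.

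The lamina genes Lmnb1 and Lbr and the chromatin gene Hmgb2 were lower by less. Lmnb1 differed by -0.27 (SE 0.07, limma adjusted p = 0.0114), Lbr by -0.25 (SE 0.07, adjusted p = 0.0217) and Hmgb2 by -0.22 (SE 0.06, adjusted p = 0.0128). Hmgb1 at 97.0% of the VC mean (-0.04, adjusted p = 0.663) and Hmgb3 at 103% (0.05, adjusted p = 0.692) did not pass, and their libraries overlapped. With the spread pooled over all 12 libraries, 2 of the 7 calls were left (Lmnb1 and Hmga2), with 6.93% of all tested genes called lower, and the limma adjusted p was 0.0877 for Lmna, 0.083 for Hmga1, 0.0923 for Lmnb2, 0.0587 for Lbr and 0.0875 for Hmgb2. The Lbr call also ended without any of 4 single libraries (replicates 2 and 3 of irradiated VC, 1 and 2 of irradiated Bub1KO), and those of Lmnb1 (adjusted p = 0.0637) and Hmgb2 (adjusted p = 0.0573) ended without replicate 2 of irradiated Bub1KO. In the authors' deposited table the irradiated log2 fold change of VC over Bub1KO was 0.71 for Lmna (adjusted p = 0.0709), 0.75 for Hmga1 (adjusted p = 0.0898) and 0.54 for Lmnb2 (adjusted p = 0.0392).

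With GC trends removed, the irradiated genotype difference was -0.75 for Lmna, -0.51 for Hmga1 (limma adjusted p = 0.000103), -0.44 for Lmnb2 and -0.96 for Hmga2. The GC gap of irradiated VC (0.16 to 0.34) overlapped that of irradiated Bub1KO (0.08 to 0.28).

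Whether irradiation acted differently in the 2 genotypes was tested with the interaction, the irradiation difference in Bub1KO minus that in VC. None of the 9 genes was called by limma, against 0.55% of all tested genes, and edgeR and DESeq2 on the recovered reads called 0 as well. At an unadjusted limma p under 0.05 there were 2 genes, as were 12.1% of all tested genes. These were Lmna (-0.91, SE 0.37, limma adjusted p = 0.331) and Hmgb2 (-0.27, SE 0.12, adjusted p = 0.379). For Lmnb1 the interaction was 0.03 (SE 0.10) and for Lbr -0.08 (SE 0.12). Hmgb1 gave 0.07 (SE 0.12), Hmgb3 0.25 (SE 0.14) and Hmga2 0.11 (SE 0.17). Hmga1 gave -0.37 (SE 0.38, limma adjusted p = 0.754) and Lmnb2 -0.31 (SE 0.28, adjusted p = 0.719). Without replicate 1 of untreated Bub1KO, 3 genes were called with a lower value in Bub1KO, as were 7.53% of all tested genes. They were Lmna (-1.32, limma adjusted p = 0.000467), Hmga1 (-0.81, adjusted p = 0.00675) and Lmnb2 (-0.64, adjusted p = 0.00516). With GC trends removed and every library kept, none of these 3 passed. The interaction was then -0.94 for Lmna (limma adjusted p = 0.1285), -0.14 for Hmga1 (adjusted p = 0.728) and -0.215 for Lmnb2 (adjusted p = 0.5025).

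**Figure D4:**
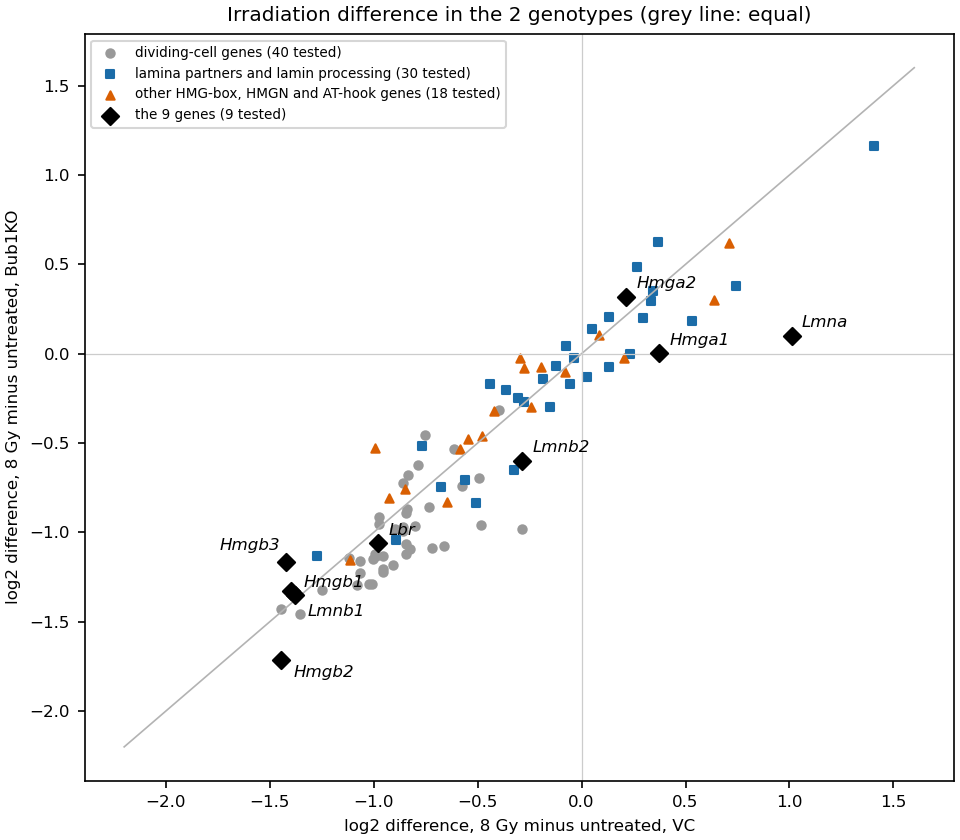
Log2 difference of irradiated minus untreated cells in Bub1KO (vertical axis) against that in VC (horizontal axis), for the 9 genes (black diamonds) and 3 gene lists, with a grey line where both are equal. Lmnb1, Lbr and the 3 Hmgb genes lie at the lower left, as do the dividing-cell genes, and within 0.27 of the line. In VC, Lmnb1 and the 3 Hmgb genes (-1.45 to -1.38) lie near the lowest gene of that list, Mki67 at -1.45. In Bub1KO, Hmgb2 at -1.71 lies below the lowest one, Ccna2 at -1.46. Lmna lies at 1.01 and 0.10.

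Ratios within a library do not depend on its size factor. The log2 ratio of Lmna to Lmnb1, in normalized counts not divided by length, was -0.47, -1.0 and -0.93 in untreated VC and 1.45, 1.92 and 1.41 in irradiated VC. In Bub1KO it was -1.18, 0.13 and 0.16 untreated and 1.07, 1.30 and 1.11 irradiated. Every irradiated library had a higher ratio than any untreated one. The irradiated VC libraries lay above the irradiated Bub1KO ones, and replicate 1 of untreated Bub1KO lay below the untreated VC ones, with the other Bub1KO replicates above.

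The log2 ratio of Hmga2 to Hmga1 was -0.65, -0.10 and -0.25 in untreated VC and -0.45, -0.79 and -0.25 in irradiated VC. In untreated Bub1KO it was 0.21, -1.65 and -1.59, the widest spread of any group, and in irradiated Bub1KO -0.87, -0.68 and -0.52. Replicates 2 and 3 of untreated Bub1KO thus had the lowest ratios of all 12. For Hmgb1 to Hmgb2 the ratio ran from -0.08 to 0.15 in untreated cells, from 0.04 to 0.21 in irradiated VC and from 0.29 to 0.38 in irradiated Bub1KO, where it lay above all other libraries.

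**Figure D5:**
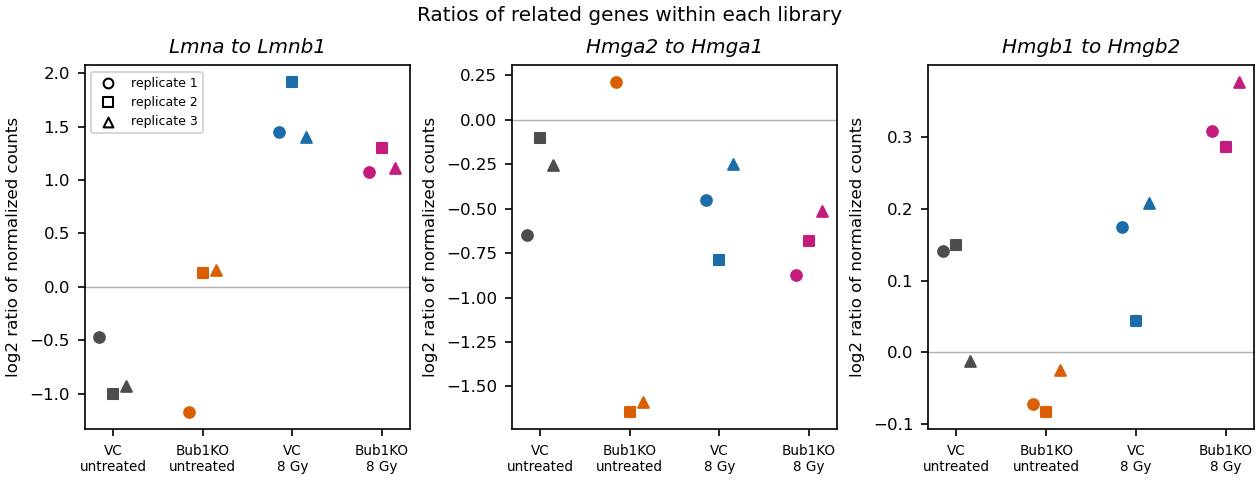
Log2 ratios of normalized counts (vertical axes) of Lmna to Lmnb1, Hmga2 to Hmga1 and Hmgb1 to Hmgb2 in each library, by group, with shapes for replicates 1 to 3. The Lmna to Lmnb1 ratio lies between -1.18 and 0.16 in untreated and between 1.07 and 1.92 in irradiated libraries.

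Genes of dividing cells fell in the same comparisons as Lmnb1, Lbr and the 3 Hmgb genes. Of 40 such genes, 38 fell and 0 rose after irradiation in VC, and 39 fell and 0 rose in Bub1KO, with medians of -0.86 and -1.07 on the log2 scale. Of all tested genes, 25.8% fell in VC and 23.9% in Bub1KO. Mki67, a proliferation antigen, fell by 1.45 in VC (limma adjusted p = 2.03e-08), and Pcna, the sliding clamp of DNA replication, fell by 1.29 in Bub1KO (adjusted p = 6.23e-09). Between genotypes 0 of the 40 were called untreated and 19 were lower in irradiated Bub1KO, against 16.4% of all tested genes. Among the 19 were Uhrf1, which guides maintenance of DNA methylation (-0.46, adjusted p = 5.57e-05), and the replication licensing factor Cdt1 (-0.71, adjusted p = 0.00032). The median of the 40 per library, relative to the mean of all 12, ran from 0.45 to 0.55 in untreated libraries, from -0.42 to -0.37 in irradiated VC and from -0.66 to -0.52 in irradiated Bub1KO. The part of this shift in the falls of Lmnb1, Lbr and the Hmgb genes was not tested.

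A list of other genes of the nuclear lamina, its membrane partners and lamin processing moved in both directions. It also holds lipid enzymes, among them Tm7sf2, Dhcr7, Lpcat3 and Plpp6. Of 30 tested, 12 fell and 6 rose after irradiation in VC, and 9 fell and 6 rose in Bub1KO, and the medians were -0.07 and -0.10. Of all tested genes, 25.8% fell and 27.6% rose in VC, and 23.9% fell and 25.4% rose in Bub1KO. Nrm, which encodes the inner membrane protein nurim, fell by 1.27 in VC (limma adjusted p = 7.99e-08) and by 1.13 in Bub1KO (adjusted p = 1.99e-07). Tmpo, which encodes the lamina-associated polypeptides LAP2, fell by 0.89 and 1.05. Among those that rose was Tm7sf2, a sterol reductase related to Lbr, by 1.41 in VC (adjusted p = 0.000121) and 1.16 in Bub1KO (adjusted p = 0.000604), the reverse of Lbr itself. Tmem43, an inner membrane protein, rose by 0.37 and 0.63. Between genotypes the list had 1 higher gene untreated, the lipid enzyme Plpp6 (0.51, limma adjusted p = 0.0307), against 2.31% of all tested genes. After irradiation 4 were higher and 8 lower in Bub1KO, against 14.3% and 16.4% of all. The higher ones included the lipid enzymes Lpcat3 (0.34, limma adjusted p = 0.000487), Dhcr7 and Tm7sf2. Banf1, which links DNA to LEM-domain proteins, had the smallest p of the lower ones (-0.27, adjusted p = 0.00376).

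The other HMG-box, HMGN and AT-hook genes mostly fell after irradiation. Of 22 listed, 18 were tested, and 13 fell and 2 rose in VC while 10 fell and 1 rose in Bub1KO, with medians of -0.36 and -0.31. Of all tested genes, 25.8% fell and 27.6% rose in VC, and 23.9% fell and 25.4% rose in Bub1KO. Hmgn2, a nucleosome-binding protein, fell by 1.12 in VC (limma adjusted p = 1.9e-07) and by 1.15 in Bub1KO (adjusted p = 1.3e-07). Ssrp1, the HMG-box subunit of the histone chaperone FACT, fell by 0.92 and 0.81. Hmg20b, a subunit of a histone demethylase complex, rose by 0.71 and 0.62 (adjusted p = 0.00897 and 0.0202). Between genotypes 0 of the 18 were called untreated, and 1 was higher and 2 lower after irradiation, Ahdc1 by a log2 difference of -0.57 (adjusted p = 0.0094). After irradiation 14.3% of all tested genes were called higher and 16.4% lower.

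Of 13 receptors and partners of extracellular HMGB1, 4 were tested. Havcr2 (TIM-3) was higher in Bub1KO both untreated (0.89, limma adjusted p = 0.0283) and irradiated (0.44, adjusted p = 0.0155) and rose after irradiation in VC by 0.88 (adjusted p = 0.000297) and in Bub1KO by 0.43 (adjusted p = 0.032). Ager, which encodes the receptor RAGE, and the syndecan Sdc1 rose in Bub1KO after irradiation (1.02 and 0.38, adjusted p = 0.00188 and 0.00213). Ager was low, with means of 31.0 normalized counts in untreated and 64.2 in irradiated Bub1KO. Sdc1 was still lower in irradiated Bub1KO than in irradiated VC (-0.20, limma adjusted p = 0.0197). Tlr4 was lower in irradiated Bub1KO than in irradiated VC by a difference of -0.28 (adjusted p = 0.0309).

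Among 43 senescence regulators and secreted factors, 19 were tested. In VC 13 rose and 1 fell after irradiation, against 27.6% and 25.8% of all tested genes. In Bub1KO 12 rose and 1 fell, against 25.4% and 23.9%. Spp1, Plau and Igfbp6 passed the filter on low values only through irradiated libraries, so the counts lean toward rises. Spp1 averaged 5.62 and 9.35 normalized counts in untreated VC and Bub1KO, and 251 and 447 after irradiation. Cdkn1a, the p21 inhibitor of cyclin-dependent kinases, rose by 1.55 in VC (limma adjusted p = 2.27e-08) and 1.86 in Bub1KO (adjusted p = 4.27e-09), and Spp1 (osteopontin) rose by 5.28 and 5.45. Cdkn2a and Cdkn2b, which encode the p16 and p15 inhibitors, are listed at 0 in every library. Between genotypes, 2 were higher and 2 lower untreated, and 4 were higher and 6 lower after irradiation. The shares of all tested genes were 2.31% and 1.71% untreated, and 14.3% and 16.4% after irradiation. Vegfa, which encodes a secreted angiogenic growth factor, was higher in irradiated Bub1KO by 0.77 (limma adjusted p = 2.63e-05).

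Hmga2 is a textbook target of the let-7 microRNAs, so genes of that axis and the target sites were looked up, although no microRNA was measured. The mature let-7a, with its seed (bases 2 to 8) in capitals and shared by 9 let-7 names in the RefSeq table (GRCm38.p6), and the 4 stretches of 23 bases with the seed's match CTACCTC in capitals in the longest annotated 3′ UTR of Hmga2 (GENCODE M21) are:
mmu-let-7a-5p: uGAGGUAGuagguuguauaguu
Hmga2 site 1: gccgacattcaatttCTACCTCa
Hmga2 site 2: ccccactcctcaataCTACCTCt
Hmga2 site 3: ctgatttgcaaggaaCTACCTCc
Hmga2 site 4: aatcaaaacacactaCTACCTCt
Hmga1 and Lbr held 1 such match each, and the other 6 genes held 0. Of the 17 listed genes around let-7, 15 symbols were in the tables and 12 were tested. Lin28b, a repressor of let-7 maturation, is listed at 0 in every library. Myc was lower in Bub1KO untreated (-0.50, limma adjusted p = 0.0173) and irradiated (-0.76, adjusted p = 4.18e-06), and was the only gene of the list called between the untreated genotypes. After irradiation Igf2bp1, an mRNA-binding protein and let-7 target, was also lower in Bub1KO (-0.53, adjusted p = 9.67e-05), while its paralog Igf2bp3 was higher (0.43, adjusted p = 0.000628). Igf2bp2, whose gene is a known target of Hmga2, rose after irradiation in VC by 2.72 and in Bub1KO by 2.22 (adjusted p = 0.000163 and 0.000874). Its level was low, with means of 2.51 and 1.99 normalized counts untreated and 19.8 and 12.3 irradiated. It thus passed the filter on low values only through irradiated libraries, and a link of this rise to Hmga2 was not tested. Dicer1, which cuts microRNA precursors, fell by 0.47 and 0.35.

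The genes most like 4 of the members across the 12 libraries were found by Pearson correlation of log2 levels, a description in which the points share libraries, depth and GC gap. For Lmnb1 these were Kif23 (r = 0.996), a kinesin of cytokinesis, Sephs1 (0.995) and Txnrd1 (0.995). For Hmgb2 they were Tpx2 (0.996), a spindle assembly factor, Fbxo5 (0.995), an inhibitor of the anaphase-promoting complex, and Anp32e (0.995), a histone chaperone. Lmna was most like Atp6v0c (0.989), a subunit of the proton pump of lysosomes, the ribosomal protein gene Rpl36 (0.988) and Ppp1r16a (0.987). Rpl36 ran from 719 normalized counts in replicate 1 of untreated Bub1KO to 17940 in replicate 2 of irradiated VC, the same lowest and highest libraries as Lmna. Hmga2 was most like Gja1 (0.970), the gap junction protein connexin 43, the Notch ligand Jag1 (0.969) and the Wnt receptor Fzd6 (0.969). Gja1 read 101, 83.8 and 65.5 in untreated VC, 161, 173 and 149 in irradiated VC and 0 to 7.22 in the Bub1KO libraries.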

How the data were processed

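The submitters' processing notes name Trim Galore, STAR, HTSeq, cutadapt and SAMtools and the build GRCm38.p6 (mm10), and state no version, annotation release or strand setting. The authors deposited 2 tables, 1 for untreated and 1 for irradiated cells. Their sample columns hold a signal, the read count over a size factor of the library (0.775 to 1.41), and both deposited tables carry the same mean of the 12 libraries, so 1 normalization is shared. The deposited tables also hold a log2 fold change (VC over Bub1KO), a test score and p-values, all by the authors.

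Whole reads were recovered from the steps of each column for 100% of values (tolerance 0.01 of a read). Log2(value + 1) was tested with limma-trend (limma 3.58.1 under R 4.3.3), for the 14721 genes that reached 10 in 3 or more of the 12 libraries. P-values were adjusted over all of them by Benjamini-Hochberg, with a threshold of 0.05. On this scale the differences of low genes are understated. Genotype comparisons used their own 6 libraries, and irradiation comparisons and the interaction all 12. Alternatives were other pseudocounts, filters, library sets and scalings, edgeR 4.0.16 and DESeq2 1.42.0 on recovered reads, removal of GC trends (loess, span 0.5), a replicate block and leaving out each library. The fits were tested on simulated counts with the same dispersion for every gene, no GC trend and no outlying library. That test therefore does not cover the GC gap or the library that stood apart. GENCODE M21 gave positions, exon lengths and GC content, and matched 55240 identifiers.

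The members and lists were chosen with earlier results of these data known. All 9 genes are named in every comparison. From each list, genes were named from up to 3 per direction with the smallest limma p among those called, and for 4 members the 3 genes with the highest correlation. Markers of melanocytes, leukocytes and macrophages, fibroblasts and endothelium (10 genes, summed level 181 to 354), and keratinocytes (8 genes, 57.2 to 133, with Krt18, Krt1 and Krt10 at 0) were checked.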

Additional observations from a re-analysis of the deposited data

How the results depend on the processing

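Depth was no limit for these genes, since the lowest value among the 9 was 476 normalized counts, but 3 libraries per group leave moderate differences between genotypes near the threshold. Of the single gene results under all alternatives, 744 kept their direction and side of the threshold, 14 passed it, 34 fell short of it and 18 changed sign. Among untreated cells the genotype comparison called 1 of the 9 genes. It called 0 with no filter on low values, and 2 when fitted on all 12 libraries, by edgeR, by DESeq2 and with GC trends removed, and 1 to 4 with a library left out. All genes called went from 591 to 329 with no filter, 1769 on all 12 libraries, 1853 by DESeq2 and 1715 with GC trends removed, and to 172 to 2736 with a library left out, the highest without replicate 1 of untreated Bub1KO. After irradiation 7 of the 9 were called between genotypes, but 3 with no filter, 2 on all 12 libraries, 4 by DESeq2 and 4 to 7 with a library left out, 4 being without replicate 2 of irradiated Bub1KO. All genes called there were 4512, against 2062, 2105 and 2545 under the first 3 of these settings. The interaction called 0 of the 9, and 0 to 3 with a library left out. Over all genes it called 81, and 273 by DESeq2, 388 with GC trends removed and 33 to 1447 with a library left out. After irradiation 6 of the 9 were called in VC, also with any 1 library left out, but 9 when the 6 VC libraries were fitted alone. In Bub1KO it was 7, against 5 to 8 with a library left out and 5 with the 6 Bub1KO libraries alone.

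Signs turned only for differences that had not passed the threshold in the comparisons above, and the cause was not tested. The largest were those of Hmga1, -0.37 between untreated genotypes and 0.37 for irradiation in VC. Some turned values of Hmga1 passed, such as -0.35 for irradiation in VC with GC trends removed (limma adjusted p = 0.0192). For Bub1KO minus VC in untreated cells, leaving out each library gave -0.41 to 0.11 for Lmnb2, -0.036 to 0.12 for Hmgb2 and -0.60 to 0.076 for Hmga1, with the sign turned by leaving out replicate 1 of Bub1KO, and -0.00018 to 0.62 for Lmna, turned without replicate 3. In irradiated cells Hmgb3 ran from -0.0045, without replicate 2 of VC, to 0.12. For irradiation in VC, Hmga1 was -0.35 with GC trends removed. For irradiation in Bub1KO, Lmna was -0.0033 by DESeq2, -0.18 with GC trends removed and -0.31, without replicate 1 of untreated Bub1KO, to 0.31 with a library left out. Hmga1 there was -0.073 with upper-quartile scaling, -0.10 by edgeR, -0.11 by DESeq2, -0.48 with GC trends removed and -0.44, without replicate 1 of untreated Bub1KO, to 0.24 with a library left out. In the interaction, Lmnb1 was -0.0020 with GC trends removed and -0.045 to 0.092 with a library left out, and Hmgb1 was -0.020 to 0.14.

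Replicate numbers showed no clear pairing of the samples. Deviations of same-numbered libraries from their group means correlated with a mean r of -0.03 (-0.19 to 0.20, 18 pairs). The mean for other numbers was 0.01 (-0.24 to 0.21, 36 pairs), a value tied to the first because deviations cancel within each group. These values cannot show that the samples were not paired. With a replicate block, all genes called went to 312 in the untreated genotype comparison and 47 in the interaction, and 1 and 0 of the 9 genes were called there. Hmga2 after irradiation in Bub1KO kept its difference of 0.32 but not the call (limma adjusted p = 0.0541).

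Leaving out replicate 1 of untreated Bub1KO was an alternative chosen after seeing the data for the lists. Without it, 7 of the 40 dividing-cell genes were called lower in the interaction against 0 with it, as were 7.53% of all tested genes. Between untreated genotypes, 3 of the 30 genes of the lamina list, which includes lipid enzymes, were then higher and 1 lower in Bub1KO, against 1 and 0 with it. Of the senescence list, 4 were higher and 4 lower there, against 2 and 2. Of the dividing-cell genes, the HMGB1 partners and the other HMG-box, HMGN and AT-hook genes, 1 each was lower, against 0. Over all tested genes, 10.2% were called higher and 8.4% lower there, against 2.31% and 1.71% with it.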
